A study of Mus musculus with 6 samples.

Results

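The genes described here are 6 matrix metalloproteinases, *Mmp2*, *Mmp3*, *Mmp9*, *Mmp12*, *Mmp13* and *Mmp14*, and 3 tissue inhibitors of metalloproteinases, *Timp1*, *Timp2* and *Timp3*. They were chosen by name, with earlier results of these data known, and make up 9 of the 31053 genes in the table. Matrix metalloproteinases are zinc enzymes, secreted or held at the cell surface, that cut collagens, elastin, proteoglycans and other proteins around cells. Most are made as inactive proenzymes and are cleaved to become active, and the inhibitors bind the active site. In tumors both are made by cancer cells, fibroblasts and infiltrating leukocytes, and the enzymes are known for opening the matrix and releasing growth factors held in it.

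Single-cell mRNA sequencing was performed on cells enriched for CD45+ leukocytes from tumors of CT26, a mouse colon carcinoma line, grown in female Balb/c mice that were 5 to 6 weeks old at receipt. The labels describe 6 tumor samples in 3 groups of 2, all bearing the same tumor line: a vehicle group, a low dose group and a high dose group, the treated groups having received an antibody to PD-1 fused to GITR ligand. Tumors were taken 5 days after treatment. The low dose is given as 30 mg per kg in one field of the labels and as 10 mg per kg in another, and the high dose as 30 mg per kg. The authors' paper names a single bispecific dose for this experiment, which differs from both, and an isotype control in place of vehicle. The table names 4 libraries, M1, M2, M5 and M6, and no label ties them to a group, so treated and vehicle tumors were not compared and values of single libraries are given side by side without a mean or a test.

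The libraries held 7160 to 10294 cells and 158337797 to 315577167 unique molecular identifiers (UMIs, each a captured transcript), with a median of 11399 to 21800 UMIs per cell. Of 33961 cells, 222 shared 111 barcodes between libraries. Each cell carried 1 of 12 cell type labels, of which 8 had at least 20 cells in every library. Levels are summed UMIs of a gene per 1000000 UMIs of a label (CPM, counts per 1000000), and intervals are exact 95% intervals that cover counting error only. Cells labelled Stroma made up 46.2% of the table (15687 cells, median 40692 UMIs) and held little *Ptprc*, which encodes CD45, at 7.47 CPM against 584 CPM in cells labelled Myeloid (2680 cells, median 8027 UMIs). Of 10 stromal markers 9 were highest in Stroma, and all 8 macrophage markers were highest in Myeloid, with a summed level of 4151 CPM against 56.6 CPM in Stroma. Myeloid was a mixed label, since all 6 neutrophil markers (summed 1418 CPM) and 5 of 6 mast cell markers (1271 CPM) were highest there too. No label names the CT26 tumor cells themselves.

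The members lay at 7 places in the genome (GRCm38, GENCODE M21). *Mmp13* (chr9:7272514-7283331), *Mmp12* (chr9:7344381-7369499) and *Mmp3* (chr9:7445822-7455975) belonged to a cluster of 10 metalloproteinase genes on chromosome 9 that spans 427 kb. *Mmp2* was at chr8:92827291-92853420, *Mmp9* at chr2:164940780-164955850 and *Mmp14* at chr14:54431612-54445364. The inhibitor genes were apart, *Timp1* at chrX:20870166-20874735, *Timp2* at chr11:118301069-118355740 and *Timp3* at chr10:86300372-86349506. The 250 bases before a RefSeq start (GRCm38.p6) could be read for 7 of the 9 members, not for *Mmp2* and *Mmp9*, and gave 8 windows because *Mmp12* has more than 1 start. The letters of an AP-1 site, TGAGTCA or its reverse complement TGACTCA, searched on both strands, occurred in 3 of the 8 windows and in 4.46% of 32851 windows of the same length over all genes. The windows that held them are printed because all 3 belonged to the genes clustered on chromosome 9, of which *Mmp12* and *Mmp13* in Myeloid, and *Mmp3* and *Mmp13* in Stroma, are compared cell by cell in the results. They run from chr9:7272264-7272513 for *Mmp13*, chr9:7347124-7347373 for the later start of *Mmp12* and chr9:7445572-7445821 for *Mmp3*, on the plus strand and 5′ to 3′, with the AP-1 letters in capitals.
Mmp13: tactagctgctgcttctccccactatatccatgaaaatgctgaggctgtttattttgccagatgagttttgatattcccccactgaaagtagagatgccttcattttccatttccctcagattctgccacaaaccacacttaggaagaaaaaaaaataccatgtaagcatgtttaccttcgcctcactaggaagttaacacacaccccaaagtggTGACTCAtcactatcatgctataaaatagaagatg
Mmp12: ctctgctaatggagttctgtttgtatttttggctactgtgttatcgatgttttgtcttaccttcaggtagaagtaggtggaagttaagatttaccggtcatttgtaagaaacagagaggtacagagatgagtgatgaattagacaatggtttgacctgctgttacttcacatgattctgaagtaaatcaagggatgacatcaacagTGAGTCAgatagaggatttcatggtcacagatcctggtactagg
Mmp3: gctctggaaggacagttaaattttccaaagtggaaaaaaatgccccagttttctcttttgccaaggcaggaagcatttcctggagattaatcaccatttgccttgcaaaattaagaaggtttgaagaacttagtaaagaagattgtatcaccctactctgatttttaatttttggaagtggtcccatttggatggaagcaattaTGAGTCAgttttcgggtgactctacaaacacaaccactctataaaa
The first capital stood 35 bases before the start in *Mmp13*, 44 in *Mmp12* and 46 in *Mmp3*. A match describes these letters and is no evidence of binding. The window of the earlier *Mmp12* start held no match.

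Across the 8 larger labels the members divided between Stroma and Myeloid. *Mmp2*, *Mmp3*, *Timp1*, *Timp2* and *Timp3* had their highest level in Stroma and *Mmp9*, *Mmp12*, *Mmp13* and *Mmp14* in Myeloid. The highest label of each member was the same in 4 of 4 libraries.

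**Figure D1:**
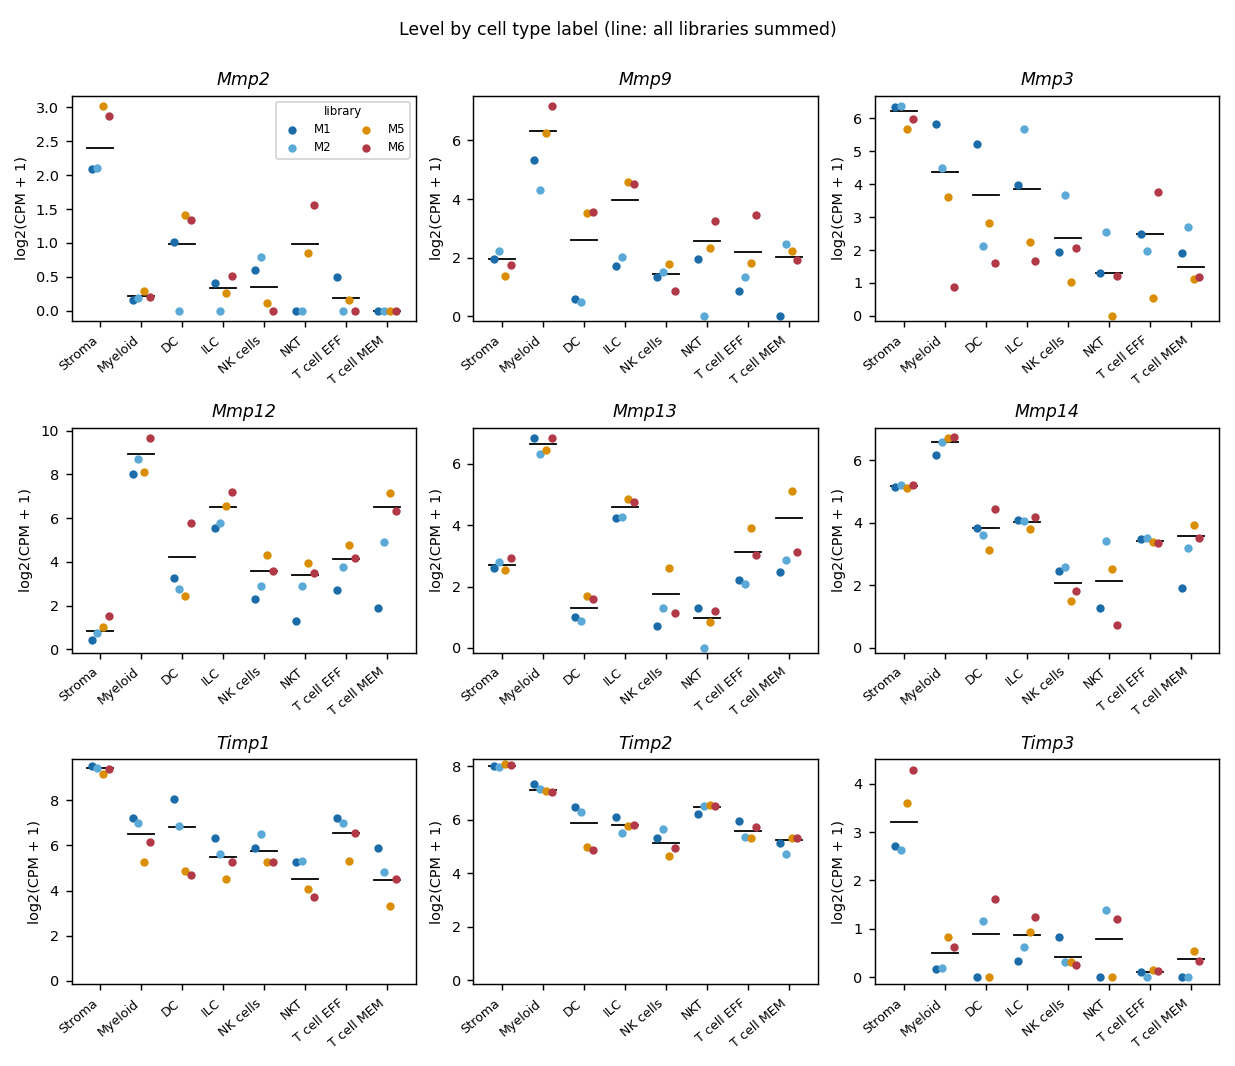
Level of each member in the 8 labels with at least 20 cells in every library. Each point is 1 library, the bar is the level over the pooled cells, and the vertical axis is log2(CPM + 1). *Timp1* and *Timp2* stand highest in Stroma and *Mmp12* in Myeloid in all 4 libraries.

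Among the gelatinases, which cut denatured collagen and basement membrane collagen, *Mmp2* was highest in Stroma and *Mmp9* in Myeloid. In Stroma they measured 4.27 and 2.88 CPM over all libraries. *Mmp2* measured 3.28, 3.30, 7.11 and 6.29 CPM in Stroma of M1, M2, M5 and M6, and its 2959 UMIs in Stroma were 98.2% of all UMIs of the gene. In Myeloid it measured 0.158 CPM over all libraries, and T cell MEM held none. The lowest Stroma library was therefore above the pooled level of every other larger label, of which DC was the next at 0.981 CPM. *Mmp9*, also known from neutrophil granules and osteoclasts, measured 39.1, 18.8, 75.7 and 142 CPM in Myeloid of M1, M2, M5 and M6, a wide spread in which M6 was highest. ILC measured 2.31, 3.10, 22.99 and 21.7 CPM, with 328 of 983 UMIs in 1 cell, and Stroma 2.88 CPM over all libraries. Stroma still held 31.2% of all *Mmp9* UMIs through its share of the table, in 9.19% of its cells, but only 0.454% of Stroma cells carried a UMI once every cell was thinned to 2000 UMIs, against 5.61% of Myeloid cells.

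*Mmp3*, stromelysin-1, which cuts proteoglycans and can activate other proenzymes, measured 80.6, 81.3, 50.4 and 61.6 CPM in Stroma of M1, M2, M5 and M6. In Myeloid it measured 55.6, 21.4, 11.1 and 0.843 CPM. Stroma was above Myeloid in each library, but by log2 ratios that ran from 0.53 in M1 to 5.09 in M6. In M1, 1 Myeloid cell held 331 of the 742 UMIs of the gene found in Myeloid over all libraries, and without it the Myeloid level over all libraries was 10.8 CPM in place of 19.5 CPM. ILC measured 14.8, 50.2, 3.77 and 2.19 CPM in M1, M2, M5 and M6, with 289 of 919 UMIs in 1 cell. DC measured 36.6, 3.31, 6.06 and 2.04 CPM, with 54 of 95 UMIs in 1 cell, so the libraries of both labels lay far apart.

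*Mmp12*, the elastase of macrophages, measured 254, 419, 278 and 816 CPM in Myeloid of M1, M2, M5 and M6 and 0.797 CPM in Stroma over all libraries, a ratio of 608. Myeloid held 66.6% of its UMIs. Cells labelled ILC measured 46.0, 53.9, 92.3 and 144 CPM in the same libraries, and cells labelled T cell MEM measured 2.75, 29, 140 and 78.3 CPM. Both labels therefore sat between Myeloid and Stroma, with T cell MEM the more uneven, and in T cell MEM of M5 a single cell held 187 of the label's 947 UMIs. Macrophage markers, which these labels should lack, were present there too. The 8 markers stood at 8.66 to 13.9% of their Myeloid level in ILC (median 9.84%) and at 8.62 to 17.3% in T cell MEM, while *Mmp12* stood at 18.8% of its Myeloid level in both. *Mmp13* stood at 23.3% of its Myeloid level in ILC and 17.9% in T cell MEM, *Mmp14* at 16.1% and 11.5%, and *Mmp9* at 18.4% and 3.89%. By these pooled levels all 4 members were above the 8 markers in ILC, whereas in T cell MEM *Mmp14* was within their range and *Mmp9* below it. The *Mmp9* level of ILC rested on few cells, with 328 of 983 UMIs in 1 cell and 648 in 5 cells. The *Mmp13* level of T cell MEM rested on M5, with 4.59, 6.34, 33.3 and 7.73 CPM in M1, M2, M5 and M6 and 143 of 186 UMIs in 5 cells. Other markers of the mixed Myeloid label were found there too. Neutrophil markers summed to 189 CPM in ILC and 317 CPM in T cell MEM, against 1418 CPM in Myeloid. Mast cell markers summed to 85.1 and 53.4 CPM, against 1271 CPM. The part of transcripts from Myeloid cells in these values was not tested.

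*Mmp13*, a collagenase of fibrillar collagen, measured 113, 78.6, 86.2 and 113 CPM in Myeloid and 5.08, 5.89, 4.80 and 6.65 CPM in Stroma of M1, M2, M5 and M6. The label ranges did not overlap. Because Stroma held most of the table's transcripts, the UMIs of *Mmp13* were split almost evenly, 38.2% in Myeloid and 38.8% in Stroma. *Mmp14*, a membrane-bound enzyme known as an activator of the *Mmp2* proenzyme, measured 71.4, 95.7, 105 and 107 CPM in Myeloid and 34.5, 35.7, 33.7 and 36.2 CPM in Stroma. It had the smallest Myeloid excess of the 4 Myeloid members, and 81.2% of its UMIs came from Stroma.

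Of the inhibitors, *Timp1*, a secreted inhibitor that also acts on cell growth, measured 725, 685, 579 and 676 CPM in Stroma of M1, M2, M5 and M6 and 146, 125, 38.0 and 71.1 CPM in Myeloid. *Timp2*, which takes part in *Mmp2* activation at the cell surface, measured 260, 251, 272 and 264 CPM in Stroma and 161, 141, 134 and 129 CPM in Myeloid. Stroma was above Myeloid for both inhibitors in every library, and the gap was narrower for *Timp2*. *Timp3*, which binds to the matrix and also inhibits ADAM proteases, measured 5.55, 5.16, 11.2 and 18.6 CPM in Stroma, which held 98.2% of its UMIs. DC was next at 0.858 CPM.

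The order of the pooled levels over the 8 labels was clear at the top and close below it. For *Mmp12* the order ran from Myeloid (485 CPM) over ILC (91.2 CPM) and T cell MEM (91.0 CPM), whose library ranges overlapped, to DC, T cell EFF, NK cells and NKT (17.8 to 9.498 CPM), and Stroma was last. The DC level rested on M6 (54.2 CPM against 4.41 to 8.63 CPM in the others). *Mmp13* had the same 3 labels on top, with ILC at 23.3 and T cell MEM at 17.9 CPM. *Mmp14* went from Myeloid over Stroma to ILC (15.5 CPM), and NK cells were last at 3.21 CPM. Stroma was the only label other than Myeloid above 20 CPM for it. For *Timp1* Stroma was followed by DC (110 CPM), T cell EFF (94.1 CPM) and Myeloid (90.4 CPM), which cannot be ranked against each other because their libraries overlapped, and T cell MEM was last at 20.96 CPM. For *Timp2* Myeloid was second and NKT, DC, ILC, T cell EFF, T cell MEM and NK cells followed from 88.2 down to 33.9 CPM.

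Inhibitor transcripts were found in every larger immune label. The *Timp1* level of each immune label, as a percent of Stroma, lay within the range of stromal markers in that label. In Myeloid *Timp1* stood at 13.2% of its Stroma level, where 9 stromal markers stood at 3.87 to 20.9% (median 9.29%). *Timp2* stood at 53.9% of its Stroma level there, above all 9 markers, and *Mmp3* at 26.5%. *Timp2* reached 88.2 CPM in NKT, which was 34.0% of Stroma, where the stromal markers stood at 0 to 12.1%. The part of transcripts from Stroma cells in the immune levels was not tested. In DC the *Timp1* level was 263 and 117 CPM in M1 and M2 and 28.6 and 25.0 CPM in M5 and M6, so the libraries fell apart there. T cell EFF measured 146, 126, 39.2 and 92.3 CPM of *Timp1* and ILC 79.8, 47.9, 22.2 and 37.9 CPM in M1, M2, M5 and M6. M1 was the highest library for *Timp1* in Stroma, DC, Myeloid, T cell EFF, T cell MEM and ILC, and M2 was the highest in NK cells (91.1 against 58.8 CPM in M1) and NKT.

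The comparison of Stroma with Myeloid asked which members differed at least 2-fold in the same direction in each of the 4 libraries, among genes of at least 10 CPM in either label. Of the 7 members that reached this level, 1 was higher in Stroma (*Timp1*) and 4 were higher in Myeloid (*Mmp9*, *Mmp12*, *Mmp13* and *Mmp14*). Over all 8792 genes tested, 12% were higher in Stroma and 18% were higher in Myeloid by the same rule. *Timp1* was 7.58-fold higher in Stroma. *Mmp9* was 27.5-fold, *Mmp13* 18.0-fold and *Mmp14* 2.75-fold higher in Myeloid. For *Mmp9* the log2 ratio of Stroma to Myeloid was −4.37, and −3.57 without M6. *Mmp3*, at 3.78-fold in favor of Stroma, missed the rule through M1, and *Timp2*, at 1.86-fold in favor of Stroma, was between log2 ratios of 0.68 and 1.02. Without M1, or without the single Myeloid cell rich in *Mmp3*, 2 members were higher in Stroma, *Mmp3* being the added one. *Mmp2* and *Timp3* did not reach 10 CPM and had ratios of 27.1 and 19.6 in favor of Stroma. *Mmp9*, *Mmp12* and *Mmp13* were under 10 CPM in Stroma and were tested only through their Myeloid level, so their direction was fixed by the filter.

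Summed over the members, Stroma held 12.8 metalloproteinase UMIs per 100 inhibitor UMIs, with 11.4 to 13.9 in single libraries. Myeloid held 338 per 100, with 173 to 586. *Mmp12* alone gave 18420 of the 29628 metalloproteinase UMIs of Myeloid, and *Timp1* gave 474222 of the 659401 inhibitor UMIs of Stroma. ILC held 156 per 100, with 65.7 to 224, and T cell MEM 214 per 100, with 14 to 398. UMIs were counted at the 3′ end and neither protein amounts nor activity were measured, so the figures compare cell classes and not the strength of an enzyme with its inhibitor.

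Thinned to 2000 UMIs, 53.2% of Stroma cells carried a *Timp1* UMI (interval 52.4 to 54.0%) and 38.1% a *Timp2* UMI, against 7.89% and 16.0% of Myeloid cells. *Mmp12* was found in 15.4% of Myeloid cells (interval 14.1 to 16.9%) and in 0.256% of Stroma cells. *Mmp14* was found in 14.4% of Myeloid and 7.56% of Stroma cells, *Mmp13* in 7.54% of Myeloid cells and *Mmp3* in 6.41% of Stroma and 0.589% of Myeloid cells. Without thinning, the shares with *Timp1* in Stroma and *Mmp12* in Myeloid were 92.3% and 24.6%. *Timp3*, by contrast, was found in 0.703% of Stroma cells after thinning and in 3.10% without it, and *Mmp2* in 0.690% and 2.28%. Thinning left out 45 Stroma and 133 Myeloid cells that were shallower.

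**Figure D2:**
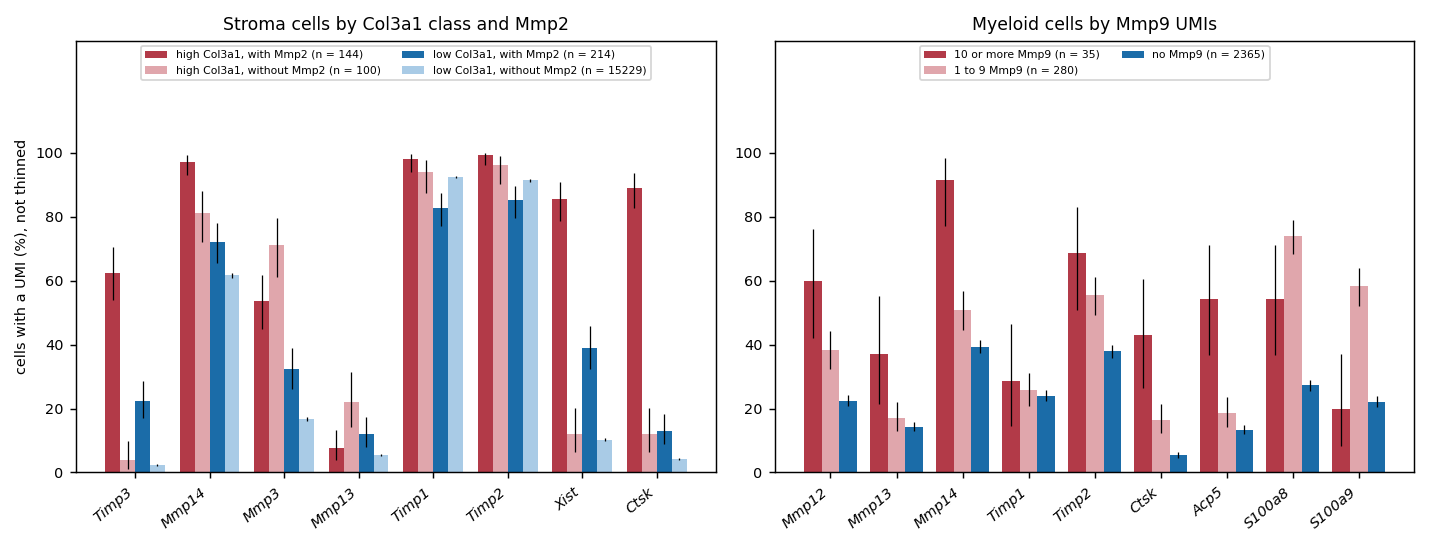
Percent of cells with a UMI of selected genes, not thinned, with exact 95% binomial intervals for counting error. Stroma cells are split by *Col3a1* class and by any *Mmp2* UMI (left), and Myeloid cells by *Mmp9* UMIs (right). Both splits by a member were made after the values were seen. *Timp3* is in 62.5% of the high *Col3a1* cells with *Mmp2* and in 4% of those without.

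Within Stroma the members were spread very unevenly. A set of 244 cells with at least 10 UMIs of the fibrillar collagen gene *Col3a1* per 10000 (1.56% of Stroma cells, 1.04% of Stroma UMIs, median 27072 UMIs per cell) was compared with the other 15443 (median 40996). There were 129, 46, 34 and 35 such cells in M1, M2, M5 and M6, and 435 cells lay between 5 and 20 *Col3a1* UMIs per 10000, so the limit cuts a range. The limit was set on *Col3a1* and genes that vary with it must differ to some degree, so the values are a description. Fibroblast markers summed to 17340 CPM in the high cells and 511 CPM in the low cells. *Col3a1*, itself among these 8 markers, gave 10360 and 49.95 CPM of the sums, so the limit fixed part of this contrast. T cell markers summed to 124 and 7.19 CPM, of which *Cd3e* alone gave 104 and 1.66 CPM. NK cell markers summed to 42.6 and 9.80 CPM and pericyte markers to 19.0 and 0.562 CPM. Macrophage markers summed to 58.1 and 56.5 CPM and neutrophil markers to 3.61 and 13.6 CPM. The part of other cells' transcripts in the member levels was not tested.

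*Mmp2* measured 217, 391, 482 and 475 CPM in the high *Col3a1* cells of M1, M2, M5 and M6 and 0.565 to 1.44 CPM in the others, a ratio of 438. These 244 cells held 82.2% of the Stroma UMIs of *Mmp2* and 74.3% of those of *Timp3*. *Timp3* measured 315, 531, 724 and 1342 CPM in them and 1.52 to 4.86 CPM in the others, a ratio of 275. Both genes were therefore close to absent from most Stroma cells in every library. *Mmp3* measured 773, 992, 451 and 622 CPM against 45.1 to 75.0 CPM (11.1-fold), and *Mmp14* measured 228, 269, 287 and 337 CPM against 30.4 to 34.1 CPM (8.08-fold). *Timp1* measured 2234, 3030, 2690 and 4778 CPM against 551 to 706 CPM (4.36-fold). *Timp2* measured 448, 525, 709 and 665 CPM against 249 to 266 CPM, 2.11-fold over all libraries but under 2-fold in M1, and *Mmp13* was uneven, at 18.5, 54.9, 6.86 and 5.23 CPM against 5.38 CPM. The high and low values of *Mmp13* overlapped between libraries and those of the other members just named did not.

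By the rule of 2-fold in every library, 5 of 7 members tested were higher in the high *Col3a1* cells (*Mmp2*, *Mmp3*, *Mmp14*, *Timp1* and *Timp3*) and 0 were lower, beside 11.3% and 4.05% of 8468 genes. *Mmp2*, *Timp3* and *Mmp13* were under 10 CPM in the low cells and were tested only through their level in the high cells, so they could not have come out lower and the count is no measure of the members as a group. With a limit of 5 in place of 10 UMIs per 10000 the count was 4, without *Timp1*, and without M1 it was 6, with *Timp2*. *Mmp9* and *Mmp12* were under 10 CPM in both classes. In the low cells *Mmp9*, at 2.85 CPM in 9.18% of cells, was above *Mmp2*, at 0.771 CPM in 1.39% of cells.

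**Figure D3:**
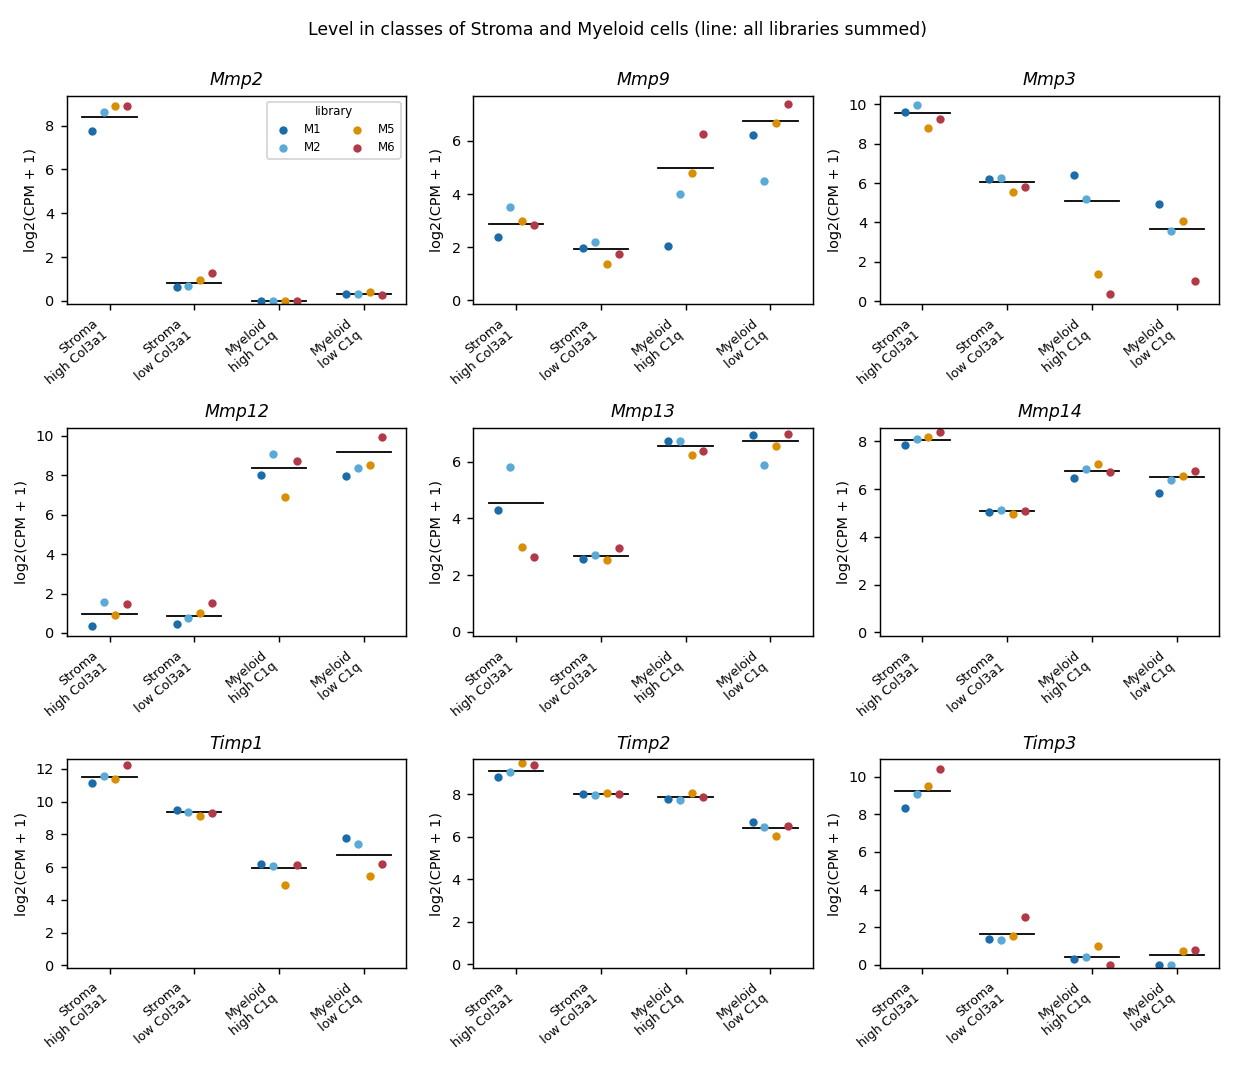
Level of each member in Stroma cells of high and low *Col3a1* and in Myeloid cells of high and low C1q. Each point is 1 library, the bar is the pooled level, and the vertical axis is log2(CPM + 1). *Mmp2* and *Timp3* are near 0 in the low *Col3a1* cells and at 217 CPM or more in every library of the high ones.

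The high *Col3a1* cells were not alike in the members. After the values were seen, they were split by whether a cell carried any *Mmp2* UMI, which sorts them by an outcome and is given as a description only. The 144 cells with *Mmp2* (56, 31, 28 and 29 in M1, M2, M5 and M6, median 30426 UMIs) held *Timp3* in 62.5% of cells, against 4% of the 100 cells without *Mmp2* (73, 15, 6 and 6, median 22905). *Timp1* measured 3977, 3941, 3010 and 5611 CPM in the former and 366, 402, 279 and 247 CPM in the latter, and the ranges lay far apart. *Mmp14* was 343 against 97.9 CPM and *Timp2* 610 against 399 CPM. *Mmp3* went the other way, with 641 CPM in 53.5% of cells that held *Mmp2* and 958 CPM in 71% of cells that did not, and *Mmp13* was in 7.64% against 22%. *Xist*, the transcript of the inactive X chromosome, which these female hosts carry, was in 85.4% of the cells with *Mmp2*, 12% of those without and 83.0% of Myeloid cells. Whether *Xist* marks host cells here was not tested. *Col3a1* itself was 14609 CPM in the cells with *Mmp2* and 1470 CPM in those without, so the latter sat close to the limit that chose them. *Lum*, a proteoglycan of collagen fibrils, was 789 against 97.9 CPM, *Fbn1*, which encodes fibrillin-1, 836 against 26.2 CPM, and *Dcn*, a collagen-binding proteoglycan, 5606 against 4168 CPM. *Aspn*, related to *Dcn*, was 197 against 732 CPM. *Mmp2* and *Timp3* were found together in 90 of the 244 cells, *Mmp2* alone in 54, *Timp3* alone in 4 and neither in 96.

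In the 15443 low *Col3a1* cells, *Mmp3* was also held by few cells. The 1% of cells (154 cells) richest in *Mmp3* held 50.6% of its UMIs in the class. The same number of cells, ranked anew for each gene, held 8.87% of the UMIs of *Timp1*, 4.57% of those of *Timp2* and 6.73% of those of *Mmp14*. Cells with at least 10 *Mmp3* UMIs, a limit also set after the values were seen, numbered 805 (319, 306, 74 and 106 in M1, M2, M5 and M6) and held 90.7% of the *Mmp3* UMIs. In those cells *Mmp13* measured 73.6 CPM and was found in 31.6% of cells, against 1.96 CPM and 3.60% in cells with no *Mmp3*. *Dcn* was 2476 against 268 CPM and *Aspn* 480 against 52.9 CPM, while *Timp1* was 490 against 678 CPM. *Xist* measured 13.1 CPM in the cells with at least 10 *Mmp3* UMIs and 14.6 CPM in those with none (9.07% and 10.6% of cells), and the median depths were 28551 and 42783 UMIs. Most cells with either gene lacked the other, since in the whole class *Mmp3* and *Mmp13* were together in 407 cells, *Mmp3* was without *Mmp13* in 2215 and *Mmp13* without *Mmp3* in 461.

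**Figure D4:**
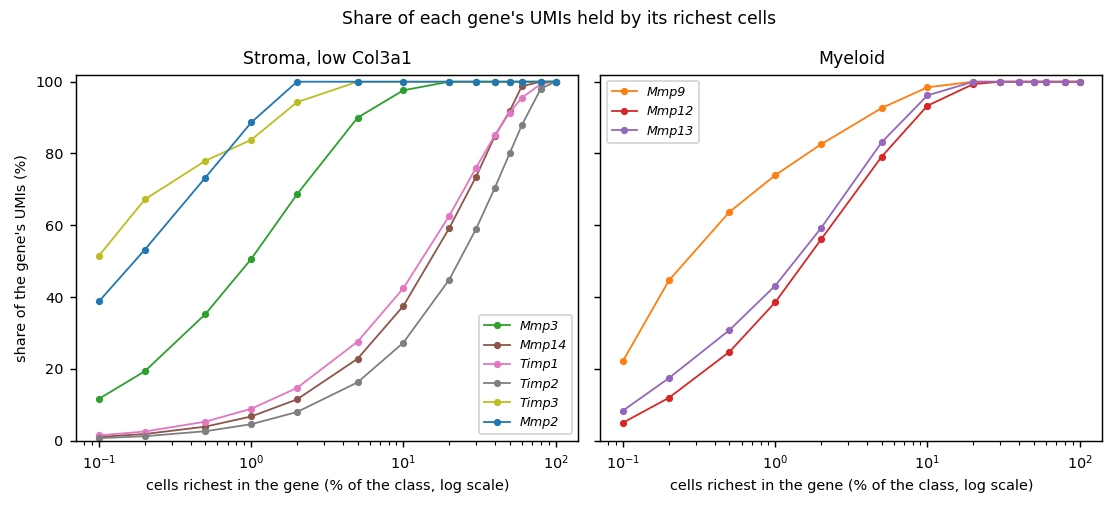
Cumulative percent of a member's UMIs against percent of cells, with cells ordered from most to fewest UMIs of that member, in the class where each is described. The richest 1% of low *Col3a1* Stroma cells hold 50.6% of *Mmp3* but 4.57% of *Timp2* UMIs, and the richest 1% of Myeloid cells hold 74.0% of *Mmp9* UMIs.

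Within Myeloid, with the cells ranked anew for each gene, the richest 1% (26 cells) held 74.0% of the UMIs of *Mmp9*, 38.6% of those of *Mmp12* and 43.2% of those of *Mmp13*. The *Mmp9* cells were examined by a limit set after the values were seen. The 35 cells with at least 10 *Mmp9* UMIs (4, 2, 8 and 21 in M1, M2, M5 and M6) held 77.9% of the Myeloid UMIs of the gene, so that the high level of M6 came with more of these cells. They held *Ctsk*, the collagen-cutting cathepsin of osteoclasts, at 4175 CPM in 15 cells and *Acp5*, tartrate-resistant acid phosphatase, at 2094 CPM in 19 cells, against 11.5 and 17.0 CPM in the 2365 cells with no *Mmp9*. Their *Mmp14* level was 228 CPM and their *Mmp12* level 871 CPM. In these 35 cells and in cells with no *Mmp9*, neutrophil markers summed to 295 against 1105 CPM, mast cell markers to 116 against 1515 CPM, macrophage markers to 2211 against 4342 CPM and T cell markers to 352 against 340 CPM. *S100a8* and *S100a9*, calcium-binding proteins of neutrophils, measured 125 and 122 CPM in the 35 cells (54.3% and 20% of cells). They measured 987 and 2111 CPM in the 280 cells with 1 to 9 *Mmp9* UMIs (73.9% and 58.2% of cells) and 298 and 727 CPM in cells with none (27.2% and 22.1%). Median depth was 29666, 11079 and 7480 UMIs per cell in the 3 sets, and its part in these shares was not tested.

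*Mmp12* and *Mmp13* were found together in 259 Myeloid cells, *Mmp12* without *Mmp13* in 400 and *Mmp13* without *Mmp12* in 141. *Mmp13* was present in 39.3% of Myeloid cells with *Mmp12* and in 6.98% of those without, with median depths of 15839 and 6375 UMIs. A cut of Myeloid at 10 UMIs of the complement genes *C1qa*, *C1qb* and *C1qc* together per 10000 gave 711 cells rich in C1q, which macrophages make (median 13452 UMIs) and 1969 others (median 7371). Neutrophil markers summed to 690 CPM in the former and 1842 CPM in the latter, and mast cell markers to 86.4 and 1962 CPM. The part of these cells in the differences below was not tested. *Timp2* measured 222, 215, 271 and 230 CPM in the former and 104, 86.8, 64.7 and 89.0 CPM in the latter, 2.74-fold, with no overlap. It was the only 1 of 7 members past 2-fold in every library, and 0 were lower, beside 0.768% and 1.06% of 8077 genes. *Mmp12* had log2 ratios of 0.06, 0.68, −1.61 and −1.23 in M1, M2, M5 and M6, and its pooled log2 ratio of −0.79 was −0.08 without M6. *Mmp13*, at 92.3 against 104 CPM, and *Mmp14*, at 107 against 89.9 CPM, did not pass. *Mmp9* was 30.4 against 108 CPM and lower in the C1q-rich cells in each library, by log2 ratios between −4.15 and −0.50, and without M2 it passed. These ratios rest on few cells, since 26 Myeloid cells held 74.0% of the *Mmp9* UMIs. Thinned to 2000 UMIs, 3.53% of the C1q-rich cells and 6.33% of the others carried a *Mmp9* UMI. The median log2 ratio was −0.17 for the 7 members and 0.07 for all genes tested.

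The members also varied between libraries within a class. In the low *Col3a1* Stroma cells, 0 of 4 members tested had a highest library at least 2-fold over the lowest, beside 0.925% of 7348 genes. *Mmp12* and *Timp3* differed there by 2.11-fold and 2.33-fold with 1 CPM added, but were under 10 CPM and not tested. In Myeloid 4 of 7 members tested were past 2-fold, *Mmp3*, *Mmp9*, *Mmp12* and *Timp1*, beside 5.29% of 7763 genes. Their UMIs sat in few cells, so the count is no measure of the members as a group. The richest 26 Myeloid cells, ranked anew for each gene, held 95.8%, 74.0%, 38.6% and 51.4% of them. For *Mmp13*, which was not past 2-fold, they held 43.2%. The make-up of Myeloid differed between libraries too. In M1, M2, M5 and M6, 216 of 579, 206 of 595, 146 of 676 and 143 of 830 Myeloid cells were rich in C1q. Macrophage markers in Myeloid summed to 2743 to 5357 CPM in single libraries and neutrophil markers to 817 to 1984 CPM. The treatment of a library is not given, and the libraries differed in depth and in cell make-up. What goes with these differences therefore cannot be told apart.

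Genes whose levels followed each member cell by cell were ranked by the mean within-library Pearson r over cells of the label where the member was highest. These cells share libraries and depth, and the values are descriptions. *Mmp2* and *Timp3* were in 2.28% and 3.10% of Stroma cells, so their r over Stroma sets few cells against many that lack the gene. *Mmp2* with *Timp3* had an r of 0.51 over Stroma and 0.26 within the high *Col3a1* cells. *Mmp2* with *Mmp14* had 0.36 and 0.67. *Mmp2* was followed by *Fstl1* (r = 0.79), *Fbn1* (0.79), and *Ctsk* (0.78), and *Timp3* by *Mfap5* (0.57), *Col5a3* (0.56) and *Fstl1* (0.55). *Mmp3* was followed by *Dcn* (0.46), *Aspn* (0.43) and *Mmp13* (0.40), with *Mmp13* the only other member in its list. In Myeloid, *Mmp12* and *Mmp13* led each other's lists (0.50), both followed by *Arg1*, which encodes an arginase made by some macrophages (0.40 and 0.32), and *Ctsl*, a lysosomal protease (0.35 and 0.32). *Mmp9* had weaker values for *S100a8* (0.28), *Ctsk* (0.25, from 0.01 to 0.46 in single libraries) and *S100a9* (0.23), and *Mmp14* had *Cxcl16* (0.39), *Sdc4* (0.39) and *Ctsc* (0.35). *Timp1* was followed by *Oaf* (0.57), *Emp3* (0.53) and *1700012B09Rik* (0.51), and *Timp2* by *Cd63* (0.58), *Cst3* and *Lamp1*.

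Over 32 profiles (8 labels in 4 libraries) and 4552 genes, the most like profiles were *Ccl6* (0.94) for *Mmp12*, *Pmp22* (0.90) for *Mmp13*, *Ptgs2* (0.94) for *Mmp14*, *Gda* (0.83) for *Mmp9* and *Dcn* (0.84) for *Mmp3*. *Timp1* was followed by *Rpl39l* (0.98) and *Timp2* by *Igf1r* (0.95), and *Mmp2* by *Rock2* and *Timp3* by *Manbal*. Among the members the highest r was 0.82 for *Mmp2* and *Timp3*, then 0.79 for *Mmp3* and *Timp1* and 0.78 for *Mmp12* and *Mmp13*. *Mmp9* had 0.75 with *Mmp13* and 0.73 with *Mmp12*. Outside Stroma the pooled levels of *Mmp2* and *Timp3* were at most 0.981 and 0.858 CPM, so their r sets Stroma against labels near 0. Over Stroma cells the mean r was 0.51 for *Mmp2* and *Timp3* and −0.06 for *Mmp3* and *Timp1*. The profiles share labels and libraries, and no p is given for them.

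Other genes of the pathway were taken from fixed lists. Of 17 other metalloproteinase genes 16 were in the table and 3 reached 10 CPM in a larger label, *Mmp8* (17.9 CPM, Myeloid), *Mmp19* (47.95 CPM, Myeloid) and *Mmp25* (17.3 CPM, DC). Among the neighbors of *Mmp3*, *Mmp12* and *Mmp13* on chromosome 9, *Mmp1b* and *Mmp7* had 0 UMIs and *Mmp10* reached 0.865 CPM. None of 5 other inhibitors reached 10 CPM in a label, but *Reck*, a membrane-anchored inhibitor, was 15.6 against 1.91 CPM and *Tfpi2* was 49.7 against 0.0671 CPM in high against low *Col3a1* cells. *Plau*, the urokinase that starts plasmin formation, measured 1.37 CPM in Stroma and 176 CPM in Myeloid. Of 12 matrix substrates tested, 10 were higher in Stroma and 1, *Vcan*, in Myeloid, beside 12% and 18% of all genes, but *Col1a1*, *Col1a2* and *Col3a1* among them are stromal markers themselves. Of the 10, 6 were under 10 CPM in Myeloid, as *Vcan* was in Stroma, so the filter fixed their direction. *Adam8*, a protease of leukocytes, measured 298 CPM in Myeloid and 4.42 CPM in Stroma. In the high *Col3a1* cells *Adamts2*, which trims procollagen, was at 312 CPM against 0.401 CPM in the low cells, and *Adamts5*, an aggrecanase, at 201 against 0.209 CPM. *Plau* was also higher in the C1q-rich Myeloid cells, at 294 against 107 CPM, while its receptor *Plaur* was lower, at 251 against 652 CPM.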

How the data were processed

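The authors aligned 10x reads to GRCm38 (mm10) with Cell Ranger 3.0.2, per the submitters' processing notes, set a minimum of 500 UMIs for a cell, and gave each cell a library name and a cell type label from its closest ImmGen profile. The deposited values are unnormalized UMI counts for each gene in each cell. Sums, intervals and ratios were computed with Python 3.11.15, numpy 2.4.6, scipy 1.17.1, pandas 2.3.3 and matplotlib 3.10.9. Counts were summed per label or class, log2 ratios used a pseudocount of 1 CPM, and a gene counted as past 2-fold only if it was so, in 1 direction, in all 4 libraries and had at least 10 CPM in either class. Shares were thinned without replacement to 2000 UMIs per cell, which was tested on simulated data. Doublets were not removed and free RNA was not corrected. Instead, immune cells rich in stromal markers were left out in an alternative. The members and gene lists were chosen with earlier results of these data known. Named genes are the members, list genes of at least 10 CPM in a label, and the 3 genes most like each member. *Reck*, *Tfpi2*, *Mmp1b*, *Mmp7*, *Mmp10*, *Mmp23*, *Adamts2*, *Adamts5*, *Lum*, *Xist* and *Acp5* were chosen after their values were seen, and *Ptprc* and the markers serve to check labels. The planned comparison of treated with vehicle tumors was not run because no label ties a library to a group. Libraries, limits, filters, fold limits, depths and mitochondrial share (10%) were varied, and the closing section gives the effect.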

Additional observations from a re-analysis of the deposited data

How the results depend on the processing

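No paired analysis was possible because the table's library names match no sample label and carry no replicate number. No called direction reversed under the alternatives run. The count of members higher in Stroma than in Myeloid, 1 as reported, ranged from 1 to 2 when a library was left out. It was 2 without immune cells rich in stromal markers, 2 when that list omitted *Thbs1*, 2 without the Myeloid cell with most *Mmp3* UMIs (the last 2 alternatives were chosen after seeing the data), 2 at 1.5-fold and 3 with no filter on low values, where *Mmp2* and *Timp3* enter by construction. The filter on stromal markers took out 44.4% of Myeloid cells, or 23.2% when it omitted *Thbs1*, which was highest in Myeloid (310 against 20.6 CPM). The count of members higher in Myeloid was 4 and became 3 with a pseudocount of 10 CPM or at 4-fold. The count of members lower in the C1q-rich cells, 0 as reported, ranged from 0 to 1. With 5 in place of 10 *Col3a1* UMIs per 10000, the log2 ratio of *Timp1* was 1.20 in place of 2.12 and that of *Mmp2* was 6.57. The shares of cells moved with thinning depth. *Timp2* in Stroma was found in 21.4%, 38.1% and 59.0% of cells at 1000, 2000 and 4000 UMIs, and in 91.4% without thinning. Of the shares under other settings 35 moved beyond their counting interval and 37 did not. Of the log2 ratios under other settings, 47 moved and 43 did not between Stroma and Myeloid. The same tally was 40 and 41 for the *Col3a1* classes and 43 and 65 for the C1q classes. Leaving out cells over 10% mitochondrial UMIs changed no count of members between Stroma and Myeloid. Depth limits what a level near 0 can show, and Myeloid cells were far shallower than Stroma cells.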

Other observations

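The 4 labels with under 20 cells in some library held member transcripts that rest on few cells. Cells labelled Stem cells (37 cells) had 95.9 CPM of *Mmp9*, but all 65 UMIs came from 1 cell of M1, and their *Timp1* level was 822, 386, 317 and 50.03 CPM in M1, M2, M5 and M6, with 171 of 367 UMIs in 1 cell. *Mmp23* and *Mmp19*, metalloproteinases outside the 9 members, were 115 against 0.150 CPM and 108 against 11.8 CPM in high against low *Col3a1* Stroma cells.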
